A study of Mus musculus with 2 samples.

Results

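This account is about 7 genes of secreted inhibitors, squamous epithelium and mucosa (Sprr1a, Wfdc16, Spink1, Wfdc2, Slpi, Crip1 and Tff3), measured in laser-captured areas of mouse liver that did or did not hold globules of mutant alpha-1-antitrypsin. The genes were proposed for their extreme difference between the areas, and a row of the deposited table counted as one of them only where the platform annotation names 1 gene. By that rule 6 of the 7 were found, among 30142 genes with such a probe set. Slpi was not, because its only probe set also lists the microRNA gene Mir7678. All 6 passed the floor on low values, a mean log2 signal of 4.76 over both arrays, which 15023 genes passed.

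Both groups came from PIZ mice, C57BL/6 mice transgenic for the human ATZ gene (mutant alpha-1-antitrypsin) under its own human promoter, untreated, on standard chow and 3 months of age. Globule-containing and globule-free areas were told apart by Cresyl Violet staining of frozen sections and cut out by laser. Each group is 1 array of RNA pooled from 2 mice, so the spread between mice was not measured and no test was possible. No mice without the transgene were analysed here, and the sources used here do not say whether the same mice gave both pools. Both arrays carried the RNA of hepatocytes: all 14 measured hepatocyte markers, among them Alb and Ttr, were above background on both.

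The genes belong to small families that are best known outside the liver. Sprr1a encodes a small proline-rich protein that transglutaminases cross-link into the cornified envelope of squamous epithelium, and it is also induced in injured tissues. Wfdc2, Wfdc16 and Slpi encode proteins with the four-disulfide core of whey acidic protein (WAP), a fold of secreted protease inhibitors, of which Slpi blocks neutrophil elastase. Spink1 is a secreted Kazal-type trypsin inhibitor of the pancreas, Crip1 a small LIM-domain protein first described in intestine, and Tff3 a trefoil peptide that goblet cells secrete and that aids mucosal repair.

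Sequences before the start of 3 genes are shown because these genes had high signals in globule-containing areas and, on the globule-free array, signals at or near background. They come from RefSeq (GRCm38.p6), whose promoter table matched 5 of the 7 genes, and each holds the 250 bases before the gene's start, 5′ to 3′ on the gene's strand. Sprr1a lies at chr3:92485882-92486131 on the minus strand, Wfdc16 at chr2:164638803-164639052 on the minus strand and Crip1 at chr12:113151762-113152011 on the plus strand. Capitals mark matches to the AP-1 motif TGANTCA and to the TATA box TATAAA.
Sprr1a: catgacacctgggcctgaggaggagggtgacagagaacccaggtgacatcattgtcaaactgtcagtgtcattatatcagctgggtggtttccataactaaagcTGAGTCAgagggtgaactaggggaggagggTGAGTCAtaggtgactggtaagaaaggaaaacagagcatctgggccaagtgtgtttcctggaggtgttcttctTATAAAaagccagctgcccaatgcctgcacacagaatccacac
Wfdc16: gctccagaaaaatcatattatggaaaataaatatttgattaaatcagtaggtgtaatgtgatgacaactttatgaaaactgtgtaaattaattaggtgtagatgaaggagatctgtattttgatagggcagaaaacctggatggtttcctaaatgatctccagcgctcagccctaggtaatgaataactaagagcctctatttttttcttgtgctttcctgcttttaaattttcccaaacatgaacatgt
Crip1: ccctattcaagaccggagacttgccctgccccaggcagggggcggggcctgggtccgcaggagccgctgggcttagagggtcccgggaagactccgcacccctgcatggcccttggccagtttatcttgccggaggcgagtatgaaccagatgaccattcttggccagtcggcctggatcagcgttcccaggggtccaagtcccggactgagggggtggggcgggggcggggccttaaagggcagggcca
The Sprr1a sequence held 2 AP-1 matches, at 146 to 140 and at 116 to 110 bases before the start, and a TATA box at 43 to 38 bases. The Wfdc16 and Crip1 sequences held neither motif and differed in base composition, with 33.6% and 67.2% G or C against 49.6% for Sprr1a. Motifs were searched on both strands. Of all 32851 promoters, 6.75% held TGANTCA at least once, 0.338% held it at 2 or more places, and 12.4% held TATAAA. The first AP-1 match of Sprr1a lies inside a match to the antioxidant response element, TGACNNNGC, which 10.2% of all promoters held. The STAT motif TTCNNNGAA (7.02% of promoters) was in none of the 5 promoters, and the C/EBP motif TTGCNNAA (9.56%) was in Slpi alone.

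In globule-containing areas 4 of the 6 genes had signals at least 2-fold higher, 1 had a lower signal and 1 was near background on both arrays. The genes were chosen by these values, the log2 signals of both arrays and their difference, which are given as a description. At least 2-fold higher signals were found for 6.47% of all genes above the floor and at least 2-fold lower signals for 5.26%, 11.7% in all. The balance of these calls depended on the scaling: 972 were higher and 790 lower as deposited, against 850 and 962 with quantile normalization and 865 and 948 with loess correction. The count for the genes was fixed by their choice, and nothing is read from it. Olfactory and vomeronasal receptors, which liver cells do not normally express, gave the background: the 95th percentile of their 1721 probe sets was 4.85 on the globule-containing and 5.04 on the globule-free array. Both background levels lie above the floor of 4.76, so a gene can pass the floor without being detected, as Wfdc6a and Wfdc11 did. In bulk samples such as these, fewer cells of a type and less RNA per cell cannot be told apart.

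Sprr1a had a log2 signal of 10.70 on the globule-containing and 3.85 on the globule-free array, a difference of 6.85. The globule-free signal was 1.19 below background, so with that signal raised to background the difference was 5.66. Sprr1a was thus detected in globule-containing areas and not detected in globule-free areas.

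The WAP genes did not share a pattern. Wfdc16 had a log2 signal of 10.59 on the globule-containing and 4.40 on the globule-free array, a difference of 6.19 as deposited and 5.56 with the globule-free signal raised to background. It was detected in globule-containing areas only, like Sprr1a. Wfdc2, also known as HE4, had 4.97 and 4.72, a difference of 0.25. With the globule-free signal raised to background that difference was -0.07, since Wfdc2 lay 0.12 above background on the globule-containing array and below it on the other, and it is no example of an extreme difference. The probe set that lists both Slpi and Mir7678 had 8.45 on the globule-containing and 5.54 on the globule-free array, a difference of 2.91 that cannot be assigned to 1 of these genes.

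Spink1, the trypsin inhibitor, had a log2 signal of 12.09 on the globule-containing and 6.35 on the globule-free array. Its difference was 5.74. Crip1 had 10.70 against 5.24, a difference of 5.46. Both were above background in globule-free areas, Spink1 by 1.32 and Crip1 by only 0.20 on the log2 scale.

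Tff3, the trefoil peptide, differed in the other direction. Its log2 signal was 4.82 on the globule-containing and 9.60 on the globule-free array, a difference of -4.77. The globule-containing signal lay 0.02 below background, so Tff3 was detected in globule-free areas only.

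**Figure D1:**
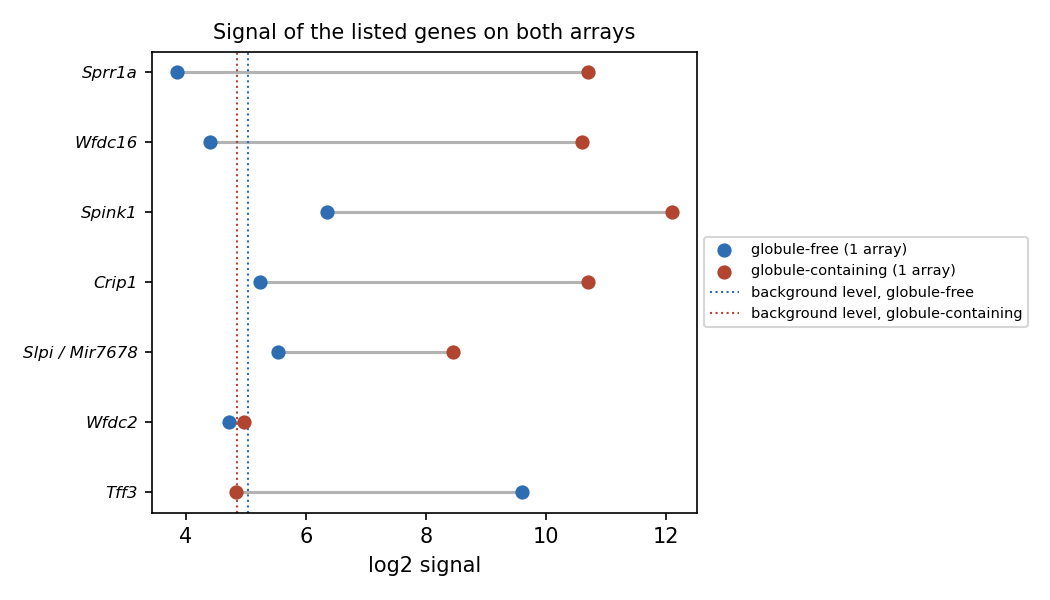
Log2 signal (horizontal axis) of each of the 7 genes (rows) on the globule-free array (blue) and the globule-containing array (red), 1 array each, with dotted lines at the background level of each array. Sprr1a and Wfdc16 run from below background to above 10.5, Wfdc2 sits near background on both arrays, Tff3 runs the opposite way, and the probe set of Slpi also lists Mir7678.

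**Figure D2:**
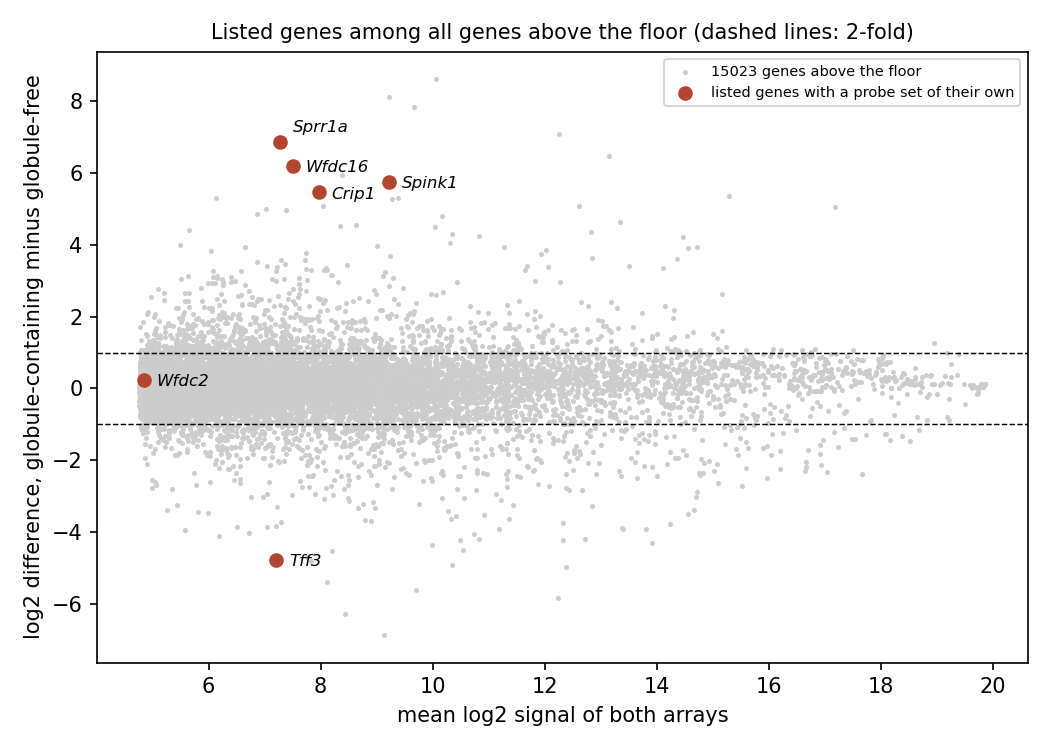
Log2 difference, globule-containing minus globule-free (vertical axis), against the mean log2 signal of both arrays (horizontal axis) for 15023 genes above the floor, with the 6 genes that have a probe set of their own in red and dashed lines at 2-fold. Sprr1a, Wfdc16, Spink1 and Crip1 lie between 5.46 and 6.85, Tff3 at -4.77 and Wfdc2 at 0.25.

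Sprr1a stood apart from its own family. Of the 12 other Sprr genes measured, 9 were below background on both arrays, and their differences ran from -0.77 for Sprr2b to 0.23 for Sprr2i. Sprr1b, the closest relative by name, had a log2 signal of 5.24 on the globule-containing and 5.31 on the globule-free array. Of the 13 other Sprr genes in the promoter table, 8 held TGANTCA in the same window, all 8 of them measured and none at least 2-fold apart. Sprr2k held it at 2 places, like Sprr1a, and the others at 1. Apart from Sprr1b and Sprr2h, these relatives with the motif were below background on both arrays. The part of the motif in the difference of Sprr1a was not tested.

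Apart from Tgm1, the other measured genes of the cornified envelope were within 2-fold or below background on both arrays. The list of SPRR and cornified envelope genes held 28 names, which give loricrin as both Lor and Loricrin. Of these, 23 had a probe set of their own, and Sprr2a1, Sprr2a2, Sprr2a3 and Csta1 only shared ones. The floor was passed by 8 genes, of which 2 were at least 2-fold higher and 0 lower, with a median difference of 0.38. The median over all genes above the floor was 0.05. The second gene with a higher signal was Tgm1, a transglutaminase that cross-links envelope proteins, with log2 signals of 6.88 and 5.55 on the globule-containing and globule-free arrays. Periplakin (Ppl) differed by 0.73 and loricrin (Lor) by 0.64. Involucrin (Ivl), Flg2, Rptn, Evpl, Tgm3 and Cnfn were below background on both arrays.

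Keratins and desmosomal genes of squamous epithelium were mostly not detected. Of 20 measured genes of that list, 17 were below background on both arrays, including Krt5 and Krt14 of basal keratinocytes, Krt1 of the suprabasal layer, Krt4 and Krt13 of mucosal squamous epithelium, Dsg3, Dsc3 and the basal regulator Trp63. The 3 that passed the floor were within 2-fold: Perp differed by 0.02, Krt10 by 0.14 and Sbsn by -0.35. Of the measured genes of both squamous lists that passed the floor, Sprr1a and Tgm1 were at least 2-fold apart on these arrays and the others were not, so the 7 genes are called here by their names and not by a squamous cell type.

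Within the WAP family 20 of 22 genes were measured, 13 were below background on both arrays and 9 passed the floor. By the deposited values 3 of the 9 were at least 2-fold higher and 0 lower, with a median of 0.13. Besides Wfdc16 these were Wfdc3, with log2 signals of 7.26 on the globule-containing and 4.46 on the globule-free array, and Wfdc18, with 5.60 and 4.27. Both globule-free signals were at background, so the folds are at least 4.67 for Wfdc3 and at least 1.48 for Wfdc18. Wfdc17 had a lower signal in globule-containing areas, 8.96 against 9.58, as did Wfdc15b, with 5.20 against 6.11. Wfdc21 is outside these counts because its probe set also lists 1100001G20Rik. Its signal was 4.19-fold lower in globule-containing areas, 17.37 against 19.43.

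Other protease inhibitors were mostly silent or even between the areas. Of 21 measured Kazal and Kunitz inhibitors 14 were below background on both arrays, and of the 6 above the floor only Spink1 was at least 2-fold apart. The list's median was 0.09. Ambp, the precursor of bikunin that hepatocytes secrete, had log2 signals of 19.07 and 19.36, and Tfpi2 had 10.09 and 9.67. Of 13 measured cystatins and stefins, which inhibit cysteine proteases, 3 passed the floor, and Cstb, the cytosolic cystatin B, was the 1 at least 2-fold higher, with 16.69 on the globule-containing and 12.77 on the globule-free array, 15.2-fold. Cst3, the secreted cystatin C, had 11.33 and 10.45, and the list's median was 0.88.

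Serine proteases, the class that such inhibitors act on, were within 2-fold where they passed the floor. Of 21 measured serine and neutrophil proteases, 11 passed the floor, 0 of them at least 2-fold higher or lower, with a median of 0.38. Elane, the neutrophil elastase that Slpi inhibits, and Prtn3 were below background on both arrays. The largest differences were those of the plasminogen activators Plat, at 0.85, and Plau, at 0.62, both with globule-free signals at background.

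Crip1 had the largest difference of the cysteine-rich LIM proteins, small zinc-binding adaptor proteins, and 2 relatives also had higher signals. Crip2 had log2 signals of 9.11 on the globule-containing and 7.44 on the globule-free array, and Csrp1, which binds actin filaments, had 8.01 and 6.57. Csrp2, known from activated stellate cells, had 11.01 and 11.11, and Csrp3, a muscle LIM protein, was lower, with 6.03 and 7.05, which was within 2-fold after median centring. Of 6 measured genes 3 were at least 2-fold higher and 1 lower, with a median of 0.71.

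Tff3 was the only trefoil factor detected, since Tff1 and Tff2 were below background on both arrays. Its companions in goblet cells were not detected either: of 34 measured mucins and mucosal secreted proteins 28 were below background on both arrays, among them Muc5ac, Agr2, Fcgbp, Spdef, Zg16 and Clca1. Of the 9 above the floor, 2 were at least 2-fold higher and 1 lower, with a median of -0.19. Pigr, the receptor that carries IgA into bile, was lower like Tff3, with log2 signals of 11.44 and 15.35. Lcn2, an iron-scavenging lipocalin, was higher, with 12.34 and 8.29, as was the lysozyme Lyz1, with 12.49 and 8.18.

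Without the 7 genes, their families (SPRR and cornified envelope, WAP, Kazal and Kunitz, LIM and trefoil) had 67 measured genes, of which 24 passed the floor. By the deposited values, 5 of these were at least 2-fold higher (Tgm1, Wfdc3, Wfdc18, Crip2 and Csrp1) and 1 lower (Csrp3), and the median difference was 0.08. Wfdc18 is among the 5 only through a globule-free signal below background, and its fold is at least 1.48. Over all genes above the floor, 6.47% were at least 2-fold higher and 5.26% lower. With a threshold of 4-fold the families had 1 higher and 0 lower. Wfdc21, with a lower signal, was not counted because of the second name on its probe set.

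**Figure D3:**
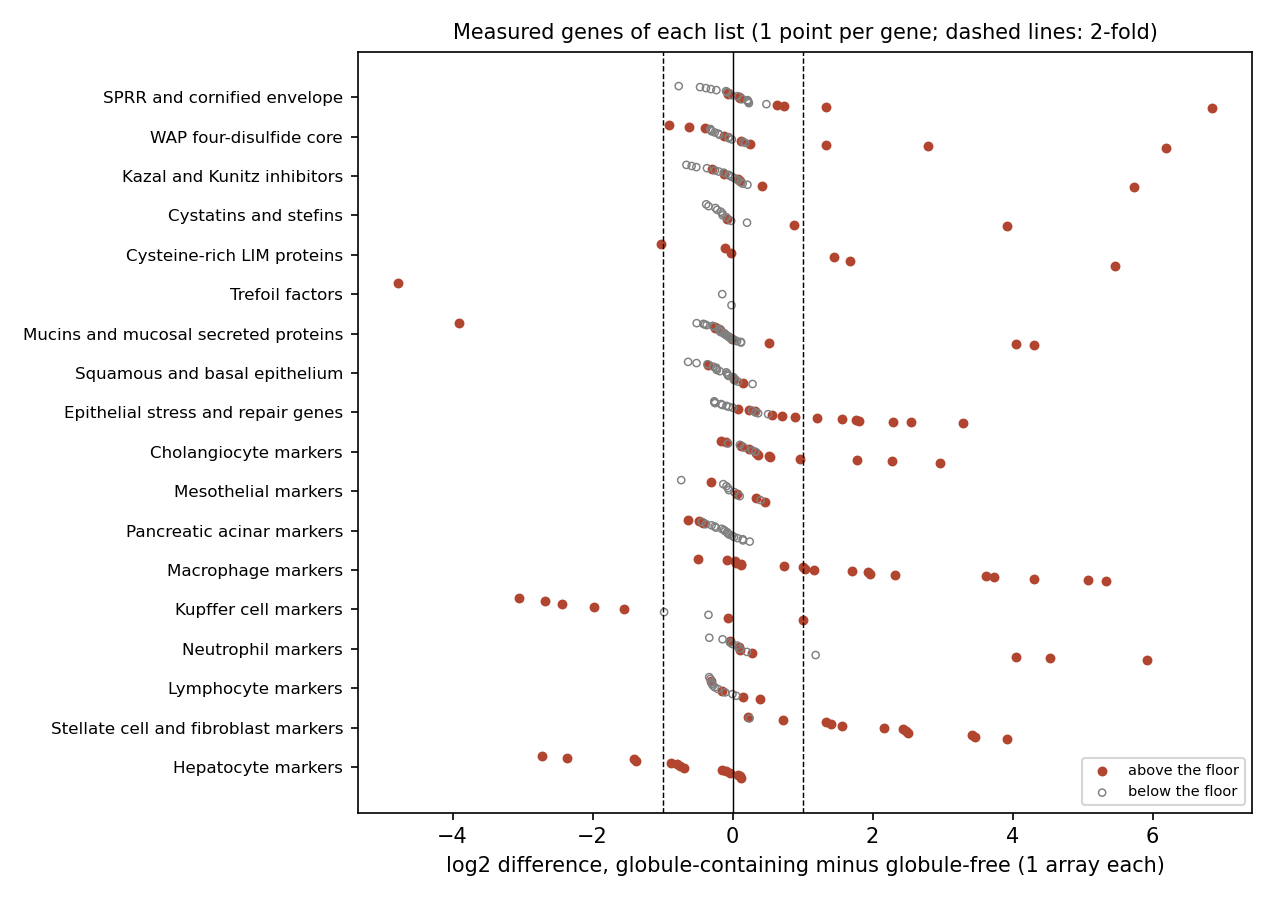
Log2 difference, globule-containing minus globule-free (horizontal axis), of each measured gene in 18 lists (rows), with genes above the floor in red, genes below it as open circles and dashed lines at 2-fold. In the SPRR, WAP, and Kazal and Kunitz lists 1 gene lies beyond 5 (Sprr1a, Wfdc16 and Spink1) while nearly all others lie between the dashed lines.

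Position on the chromosome was not used in choosing the genes. Slpi, Wfdc2 and Wfdc16 lie on chromosome 2 in the stretch from Wfdc5 to Wfdc3, which holds 32 protein-coding genes in RefSeq order (GRCm38.p6). Of 31 measured genes of that stretch 20 were below background on both arrays, and of 14 above the floor 2 were at least 2-fold higher, Wfdc16 and Wfdc3, and 1 lower, the proteoglycan gene Sdc4, with a difference of -1.89. Wfdc16's direct neighbours Wfdc6b and Wfdc9 were below background on both arrays. Sprr1a lies among Sprr and Lce genes on chromosome 3, and of the 19 measured genes among the 10 protein-coding neighbours on each side 14 were below background on both arrays and 0 were at least 2-fold apart.

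Crip1 is the one with several higher neighbours. Of its 9 neighbours above the floor 3 were at least 2-fold higher, namely Crip2, Zfp386 with a difference of 1.10 and Esyt2 with 1.39. Tff3, next to Tff2 and Tff1, had 10 neighbours above the floor and 0 at least 2-fold apart. Over all 7 genes, 43 different neighbours passed the floor, of which 11.6% were at least 2-fold higher and 2.33% lower, beside 6.47% and 5.26% of all genes above the floor.

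**Figure D4:**
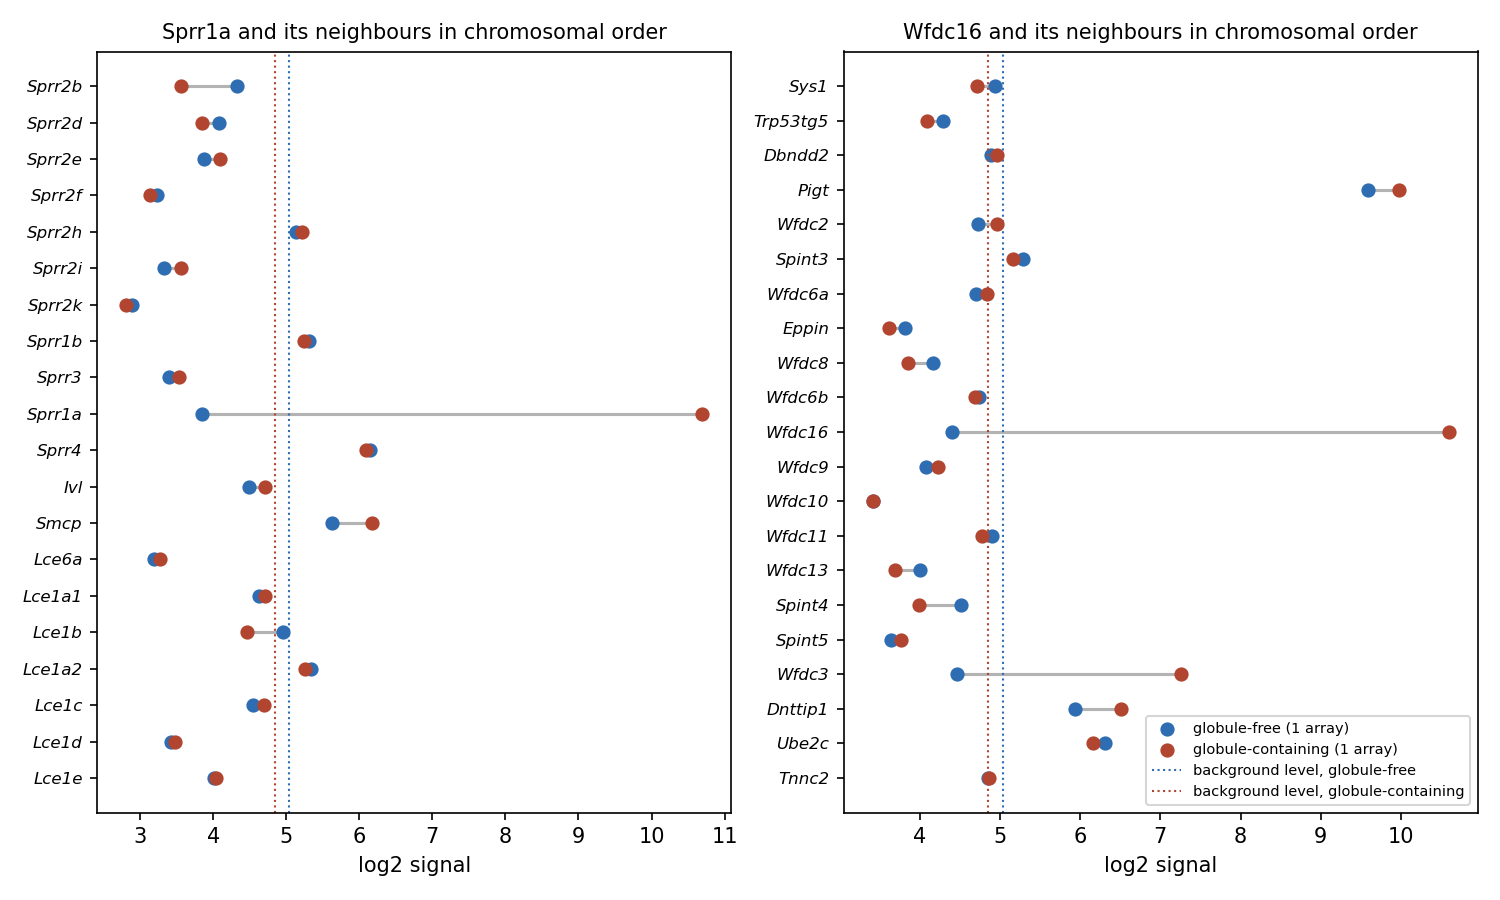
Log2 signal (horizontal axis) of Sprr1a (left) and Wfdc16 (right) and of the measured genes among their 10 protein-coding neighbours on each side, in chromosomal order (rows), on the globule-free (blue) and globule-containing (red) arrays with dotted background lines. Wfdc3 is the only neighbour shown that is at least 2-fold apart; most neighbours lie at or near background, and Pigt, at 9.97 and 9.59, is the clearest exception.

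Of the listed genes of epithelial stress and repair above the floor, 53.8% were at least 2-fold higher, beside 6.47% of all genes above the floor. The list was chosen with earlier results of these data known. Of 25 measured genes 13 passed the floor, all 13 had a difference above 0, with a median of 1.21, and for 7 the signal was at least 2-fold higher while 6 were within 2-fold. Of these 6, Ocln differed by 0.07, Sox9 by 0.24, Mmp7 by 0.32, Plaur by 0.56, Clu by 0.71 and Lgals3 by 0.89. The globule-free signals of Mmp7 and Plaur were at background, so their folds are at least 1.03 and 1.04. Klf6, an injury-induced transcription factor, had log2 signals of 9.75 on the globule-containing and 6.46 on the globule-free array, and Emp1, an epithelial membrane protein, had 8.05 and 5.49. Il1rn, the interleukin-1 receptor antagonist, had 8.94 and 6.65, and Tnfrsf12a, the receptor of TWEAK, had 7.38 and 5.58. The growth factors Hbegf, Ereg and Epgn, the tight junction gene Cldn4 and the integrin Itgb6 were below background on both arrays.

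A further list held AP-1 transcription factors and interleukin-6 family cytokines, both known to act on Sprr1a in other tissues, with the receptors of these cytokines and related genes such as Myc. The cytokines Il6, Lif, Osm and Il11 were below background on both arrays. Of 12 genes above the floor 4 were at least 2-fold higher and 1 lower, with a median of 0.32. Jun had log2 signals of 8.23 on the globule-containing and 6.50 on the globule-free array, Atf3 had 8.14 and 5.95, and Myc had 8.23 and 6.49. The fourth higher gene was Osmr, the oncostatin M receptor, with a difference of 1.26. Lifr, the leukaemia inhibitory factor receptor, was lower, with 10.65 and 12.94. Fos, Fosb, Fosl1, Fosl2 and Socs3 were below background on both arrays, and the cytokine Clcf1 differed by 0.33.

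Markers of several other cell types differed between the arrays beside the 7 genes. For macrophages, which can also make Slpi, 12 of 19 markers were at least 2-fold higher and 0 lower, with none below background on both arrays, and the log2 of their summed signals was 18.37 on the globule-containing and 13.66 on the globule-free array. Lyz2 differed by 5.34, Ctss by 5.08 and Cd68 by 3.73. Fcgr1 is among the 12 only through a globule-free signal below background, and its fold is at least 1.77. With quantile normalization or loess correction 11 markers were higher. The other 7 markers were within 2-fold, among them Adgre1 at 0.12, C1qa at 0.05, C1qc at -0.08 and Mrc1 at -0.50. The list's median was 1.16. Lyz2 alone had a log2 signal of 17.96 on the globule-containing array and made up most of the sum there. Markers of resident Kupffer cells were lower in 5 of 7 cases and higher in 1 (Id3, by 1.01, which was within 2-fold after quantile normalization or loess correction), with summed signals of 10.26 and 12.48, and Clec4f differed by -3.05. For stellate cells and fibroblasts 10 of 12 were higher and 0 lower, with summed signals of 15.65 and 12.30. The part of these cells in the differences of the 7 genes was not tested.

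Neutrophil markers were split. Of 7 above the floor 3 were at least 2-fold higher and 0 lower (S100a8 by 5.92, S100a9 by 4.54 and Lcn2 by 4.05). The other 4 were within 2-fold: Ly6g differed by 0.27, Cxcr2 by 0.11, Csf3r by 0.09 and Camp by -0.04. Summed signals were 13.29 and 9.56, on the globule-containing array mostly those of S100a8, S100a9 and Lcn2. Mpo, Elane, Ltf, Ngp, Mmp8 and Mmp9 were below background on both arrays. Cholangiocyte markers were of interest because bile ducts make mucosal proteins. Of 12 above the floor 3 were higher and 0 lower (Tspan8 by 2.96, Cd24a by 2.28 and Bicc1 by 1.78). The globule-free signals of Tspan8 and Bicc1 were at background, so their folds are at least 6.52 and 3.43. Summed signals were 11.62 and 11.42, mostly those of Onecut2, with 10.44 and 10.60, and Aqp1, with 9.41 and 9.51. Of 17 measured markers 13 were above background on the globule-containing and 5 on the globule-free array. Krt7 and Cftr of bile ducts were below background on both arrays, and Krt19, with 5.11 and 4.77, and Epcam, with 5.77 and 4.81, were above it on the globule-containing array alone. The part of both cell types in the differences of the 7 genes was not tested.

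Most markers of pancreatic acinar cells, mesothelium and lymphocytes were below background. Of 20 measured genes of pancreatic acinar cells, where Spink1 is abundant, 17 were below background on both arrays, including Prss1, Prss2, Cpa1, Cpb1 and Ctrb1, and 0 were at least 2-fold apart. Amy2b, with log2 signals of 7.15 and 7.63, and Cela1, with 5.06 and 5.69, were above background on both. The log2 of the summed signals of all 20 was 8.92 on the globule-containing and 9.21 on the globule-free array. Of 12 mesothelial markers 9 were below background on both arrays, including Msln and Wt1, and 0 were at least 2-fold apart, with summed signals of 8.35 and 8.40; Slc39a8, with 6.46 and 6.76, was above background on both. Of 14 measured lymphocyte markers 11 were below background on both arrays and 0 were at least 2-fold apart, with summed signals of 8.26 and 8.38; Cd79b, with 5.28 and 5.59, and Cd3g, with 5.37 and 5.21, were above background on both.

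Hepatocyte markers were lower in 4 of 14 cases and higher in 0, with a median of -0.72 and summed signals of 22.08 and 22.43. Those lower as deposited were Pck1, Cps1, Tat and Serpina1c. The count depended on the processing: 5 were lower with quantile normalization, 6 with loess correction and 3 with the brightest probe set of each gene. Of 13 endothelial markers above the floor 1 was at least 2-fold higher (Eng, by 1.38) and 0 lower, with summed signals of 12.20 and 11.81.

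The genes whose pair of signals was nearest to that of each gene were found by Euclidean distance over the 2 arrays, a weak measure of likeness, because the level of a probe set also depends on its probes and the same values chose the genes. The search covered genes above the floor and left out predicted, RIKEN, olfactory and vomeronasal receptor, small RNA, pseudogene and variable region entries. Distances are given only where both signals were above background. Spink1 was nearest to the leukocyte receptor Lilrb4a, at 0.39, and then to S100a9, at 1.19. Crip1 was nearest to Atp6v0d2, a proton pump subunit, at 0.29, and then to S100a8, at 0.67. For Sprr1a, Wfdc16, Wfdc2 and Tff3 at least 1 signal was below background, where a distance has no meaning.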

How the data were processed

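RNA of 2 laser-captured pools was isolated with a PicoPure kit, and biotin-labelled cRNA was made from 50 ng with the NuGEN Ovation WTA System V2, per the labels' protocols. The deposited table holds log2 signals for 72688 probe sets, a scale read from the values (1.85 to 19.93). The Transcriptome Analysis Console is named in the submitters' processing notes; the sources used here do not give the background correction, the normalization or the genome build. Precision is limited by the number of arrays.

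Repeated names in the platform annotation were counted once. Of the probe sets, 30604 named 1 gene, 2146 several and 39938 none. Entrez IDs of 22818 matched a RefSeq table (GRCm38.p6), so that 827 symbols were updated. A gene's value is the average of its probe sets. The floor is the median, over probe sets naming 1 gene, of the mean of both arrays. A difference is globule-containing minus globule-free, and called means at least 2-fold. A fold is given as "at least" where 1 array was at background, with that signal raised to it. With 1 array per group there is no SD, p-value or replicate check.

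The 7 genes and the 21 gene lists were chosen with earlier results of these data known, and so was the background level. Genes were named by a rule: the 7 genes, the 4 with the largest difference above the floor in each list, the 3 brightest of each of the families and the 2 nearest genes of each gene above background on both arrays; others are named as detected, not detected, neighbouring or completing a count, and were chosen after their values were seen. Alternatives were the scaling, the choice of probe set, the floor, the fold threshold and the treatment of dim signals. Counting was tested on simulated data. The tools were numpy 2.4.6, pandas 2.3.3, statsmodels 0.14.6 and matplotlib 3.10.9 under Python 3.11.15.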

Additional observations from a re-analysis of the deposited data

How the results depend on the processing

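With quantile normalization, loess correction, median centring or the brightest probe set of a gene, the differences of the 6 genes kept their direction. Each fold, not its log2, changed by less than 1.5 times. The log2 differences ran from 6.79 to 6.88 for Sprr1a, 6.13 to 6.22 for Wfdc16 and 5.60 to 5.77 for Spink1. They ran from 5.38 to 5.49 for Crip1, 0.25 to 0.32 for Wfdc2 and -4.83 to -4.74 for Tff3. Raising dim signals to background moved Sprr1a to 5.66 and Wfdc16 to 5.56. With background at the 99th percentile of receptor probe sets, differences were 4.77 for Sprr1a, 4.66 for Wfdc16, 4.77 for Crip1 and -3.94 for Tff3. With a threshold of 4-fold, 213 genes were higher and 198 lower, and the families without the 7 genes had 1 higher and 0 lower. With the floor at the 75th percentile, 642 genes were higher, and the families had 2 higher and 0 lower. With median centring the families had 0 lower. With probe sets of several genes included, 5 of the 7 genes were higher. No paired analysis was possible because each group is 1 array, and no replicate could be left out. Signal over background limits Sprr1a, Wfdc16, Wfdc2 and Tff3, for which 1 array gave only a bound. With background at the 99th percentile this also holds for Crip1.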

Other observations

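A further WAP gene, chosen after its values were seen, was bright in liver and went the opposite way to Wfdc16. The probe set that lists Wfdc21 and 1100001G20Rik had log2 signals of 17.37 on the globule-containing and 19.43 on the globule-free array, 4.19-fold lower in globule-containing areas. RefSeq gives the second name as a synonym of the first, and because 2 names are listed the probe set was left out of the counts of the family. The probe sets shared by Sprr2a genes differed by -0.51 and -0.21, and the one shared by Krt6a and Krt6b, keratins of wounded epidermis, differed by -0.35, so these shared probe sets showed no difference of 2-fold either.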
